A study of Homo sapiens with 10 samples.

Results

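The genes described here encode the nuclear-encoded subunits of the 5 complexes of mitochondrial oxidative phosphorylation. They were chosen by symbol: NDUF, SDH, UQCR, CYC1, COX4 to COX8 and ATP5 names were kept, and names ending in P and digits, the usual form of a pseudogene, were dropped. Of 184 rows that matched, 92 were dropped and 92 remained, which carried 88 different symbols among the 57993 of the whole table. Of these 88, 82 reached a value of 1 or more in 2 or more libraries and are described below as 37 genes of complex I, 4 of complex II, 10 of complex III, 14 of complex IV and 17 of complex V. NDUFA4 is counted in complex IV, where its protein sits despite its name. Of the 17 complex V names, ATP5S and ATP5SL belong to assembly factors and not to subunits. COX7A2L, counted in complex IV, encodes a factor that joins complexes into supercomplexes.

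The libraries came from HCT116, an epithelial line from a human colorectal carcinoma. The 4 groups were KDM5A-/- cells given a mutant KDM5A plasmid (2 libraries), KDM5A-/- cells given the wild-type form (3 libraries), KDM5A-/- cells given empty vector (3 libraries), and parental cells given empty vector (2 libraries). All cells were sorted as GFP positive 24 hours after transfection. The KDM5A protein erases methylation of lysine 4 on histone H3, a mark of active promoters. The labels do not name the residue changed in the mutant. The knockout was a purchased line kept in 300 ug/mL G418, a drug the parental culture did not receive, so knockout, line and drug cannot be told apart in that comparison. Separate cultures within a group are not mentioned in the labels, so the p-values below reflect sample-to-sample spread alone, and that spread may be technical.

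In oxidative phosphorylation, complex I takes electrons from NADH and complex II takes them from succinate. Complex III passes electrons on to cytochrome c, and complex IV passes them to oxygen. Complexes I, III and IV pump protons across the inner mitochondrial membrane, and complex V, the ATP synthase, uses the gradient to make ATP. Complex II is encoded wholly in the nucleus, while the other complexes also hold subunits made from mitochondrial DNA. Promoters of the nuclear genes are known for sites of NRF1, of ETS factors such as GABPA and of YY1. KDM5 proteins are known as regulators of nuclear genes for mitochondrial proteins.

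Values are FPKM, a level per length of transcript, and the deposited values sum to about 1000000 in each library. They were then put on a common scale with the median ratio of each library over the 13651 genes at 1 or more in all of them. These values are called scaled FPKM below. KDM5A stood at 23346 and 22816 scaled FPKM in the mutant libraries and at 13452, 16237 and 15598 in the wild-type libraries, against 12.2, 15.3 and 12.3 in the empty-vector libraries. Parental libraries had 13.3 and 17.7 scaled FPKM, and the difference of knockout from parental cells did not pass (-0.20 on the log2 scale, limma, adjusted p = 0.391), but an RNA level for the whole gene does not show where a deletion lies.

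3 libraries stood apart from the rest before any subunit gene was considered, namely both mutant libraries and parental library 2. Their share of the total from protein-coding genes was 89.6% to 90.3%, against 92.5% to 92.8% in the other 7, and their share from ribosomal protein genes was 15.59% to 16.236%, against 12.689% to 14.005%. Their relative depth, read from the value that a single read is worth, was 0.603, 0.688 and 0.824 of that of empty-vector library 1, and 0.895 to 1.21 in the others. This estimate is rough. The most common ratio of low values, on which it rests, covered 7.29%, 10.4% and 8.16% of the loci compared in these 3 libraries. In the others set against empty-vector library 1 it covered 12.2% to 14.1%. Read counts were not given, so no counting interval is printed. Of 7 epithelial markers, 6 passed the filter on low values, and the list summed to 5095 and 5615 scaled FPKM in the mutant libraries, against 4121 to 4170 with empty vector. Of 10 markers of leukocytes, endothelium, fibroblasts and erythroid cells, COL1A1 and HBA1 passed the filter, and the list summed to 19.4 and 30.3 in the mutant libraries, against 23.8 to 34.0 with empty vector. COL1A1 passed downward in mutant against empty-vector cells (-0.70, adjusted p = 0.044), at 13.5 and 15.01 scaled FPKM in the mutant libraries, against 20.2, 23.1 and 28.7 with empty vector. HBA1 stood at 14.1 and 3.56 in the mutant libraries, against 2.56, 2.34 and 4.22 with empty vector, and PECAM1, below the filter, at 1.148 and 0.606 in the mutant libraries, against 0.0582, 0.0587 and 0.0732 with empty vector. The other erythroid and endothelial markers, HBB and VWF, also below the filter, were not higher in the mutant libraries. HBB stood at 0.584 and 0.0471 there, against 0.7098, 1.5486 and 0.3863 with empty vector. VWF stood at 0.2449 and 0.0629 in the mutant libraries, against 0.1733, 0.2232 and 0.3523 with empty vector. The fibroblast markers COL1A2 and DCN and the T cell marker CD3E stayed below 0.3 in every library. The part of other cell types in the results was not tested. In bulk RNA, fewer cells of a type and less RNA per cell cannot be told apart.

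The subunit genes were among the abundant transcripts of these cells. As deposited, the 82 genes took 1.88% and 1.98% of the total in the mutant libraries, 1.79% to 1.84% in the wild-type libraries, 1.81% to 1.90% with empty vector and 1.85% and 1.97% in parental cells. After scaling, complex I summed to 7356 ± 13.4 scaled FPKM in mutant cells (SD, n = 2) and to 5672 ± 218 with empty vector (SD, n = 3). Complex IV summed to 5747 ± 175 in mutant cells and to 3994 ± 185 with empty vector, and complex V to 6115 ± 55.2 in mutant cells and 4814 ± 218 with empty vector. Both mutant libraries lay above all 3 empty-vector libraries in the sums of all 5 complexes. Without scaling, the groups overlapped for complexes I, III and V. The order turned round for complex II, which then summed to 492.7 and 442 in the mutant libraries and to 525.5, 492.8 and 508 with empty vector. It remained for complex IV, which summed to 4745 and 5115 in the mutant libraries and to 4461, 4222 and 4326 with empty vector.

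**Figure D1:**
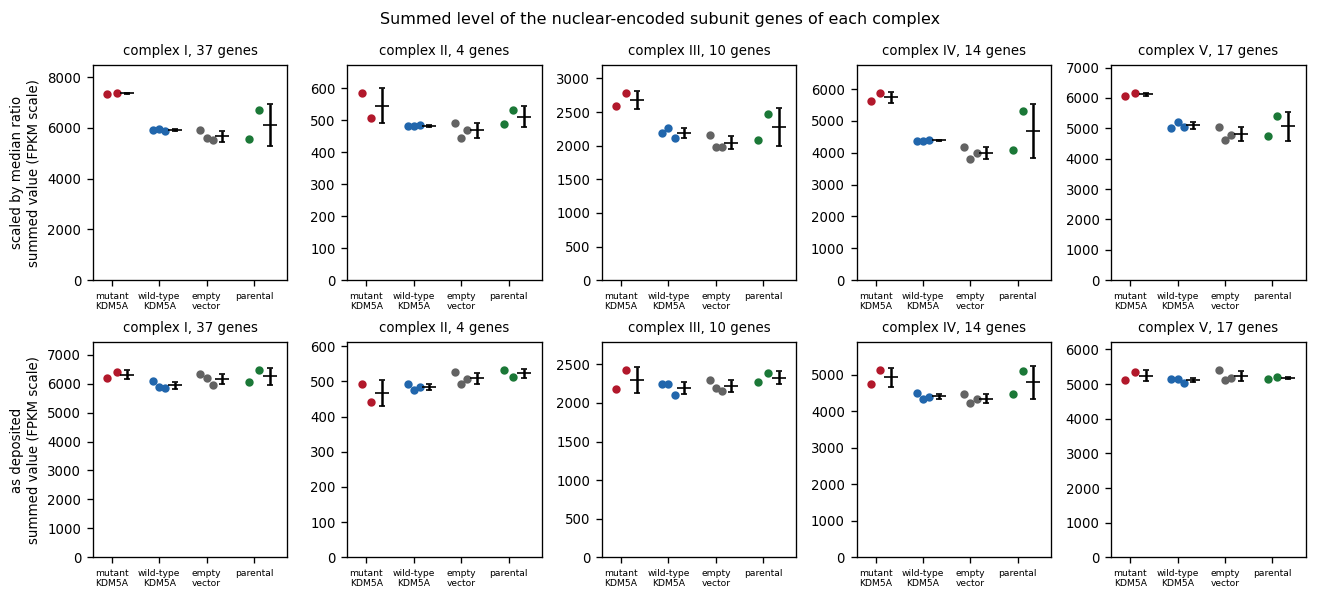
Summed level of the subunit genes of each complex in every library (points, FPKM scale), with the mean and SD of each group beside them; the upper row is scaled by median ratio and the lower row is as deposited. In the upper row the 2 mutant libraries sit above the 3 empty-vector libraries for every complex, and in the lower row they do so for complex IV.

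Levels within a complex spanned a wide range. In complex I the highest means over the 10 libraries belonged to NDUFS5, NDUFB9 and NDUFB8, at 545, 531 and 386 scaled FPKM, and the lowest to NDUFV3, at 36.0. In complex II the membrane anchor SDHC averaged 169, the iron-sulfur subunit SDHB 130, the anchor SDHD 124 and the flavoprotein SDHA 74.0. UQCRH, the hinge protein of complex III, averaged 645, while UQCRFS1, the Rieske iron-sulfur protein that carries electrons within the complex, averaged 51.3. COX4I1 was the highest gene of complex IV, at 920, and ATP5B, which encodes the catalytic beta subunit, the highest of complex V, at 804.

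Where a subunit has tissue-specific paralogs, the form known from most tissues was the one present. COX4I1 ranged from 764 to 1208 scaled FPKM over the 10 libraries, whereas COX4I2, its lung form, did not exceed 0.293. COX6A1 ranged from 492 to 906, and COX6A2, the form of heart and skeletal muscle, did not exceed 0.199. COX8A ranged from 644 to 1038, and COX8C, known from testis, reached 1.18 in parental library 2 and stayed below 0.5 elsewhere. COX7B2, ATP5L2 and the pseudogene ATP5J2LP also failed the filter, the last listed at 0 in every library. COX6B2, known from testis, and COX7A1, the heart and muscle form of its subunit, passed only narrowly, with means over all libraries of 0.879 and 1.07. UQCRHL, a retrocopy of UQCRH, averaged 3.97, and reads of such near-identical genes may be shared between them. Subunit c of the ATP synthase ring is made from 3 genes with the same mature protein, and here all were present, with means over the 10 libraries of 388 for ATP5G1, 372 for ATP5G2 and 268 for ATP5G3.

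Promoter sequence was taken from RefSeq (GRCh38.p14) for 66 of the 82 genes, from 250 bases before to 50 after the start, and searched on both strands for GCGC, any 2 bases and GCGC again (NRF1), CCGGAAG (ETS) and AAGATGGCG (YY1), of which the ETS motif ends with the letters that open the YY1 motif. ETS and YY1 matches shared bases in 0 of the 66 promoters. NRF1 motifs were in 16 of 66 (24.2%), against 9.98% of the 27305 genes in the table. Those 27305 were not filtered by gene type or by expression in these cells, unlike the 66, so the 2 sets are not matched. ETS motifs were in 20 of 66 (30.3%), against 12.2% of all genes. YY1 motifs were in 9 of 66 (13.6%), against 2.14% of all genes, and 1 of these 9, in ATP5J, lay before the start. The 4 stretches below are shown for SDHB and SDHA, which differ most within complex II, and for NDUFA4 and NDUFB7, which passed the test of mutant against empty vector, given below, under each of 3 scalings. Each is on the gene's own strand, and capitals mark the searched motifs. Each ends where RefSeq or GENCODE first starts the gene, so the ETS and YY1 motifs of SDHB, which lie further on, are not within the stretch shown.
SDHB, chr1:17054171-17054282, minus strand: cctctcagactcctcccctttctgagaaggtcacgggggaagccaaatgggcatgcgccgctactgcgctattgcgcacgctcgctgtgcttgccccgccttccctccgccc
SDHA, chr5:218070-218239, plus strand: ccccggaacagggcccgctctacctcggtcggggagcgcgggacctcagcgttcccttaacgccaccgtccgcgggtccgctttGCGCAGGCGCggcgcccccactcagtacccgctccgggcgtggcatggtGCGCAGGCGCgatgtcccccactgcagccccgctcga
NDUFA4, chr7:10940257-10940403, minus strand: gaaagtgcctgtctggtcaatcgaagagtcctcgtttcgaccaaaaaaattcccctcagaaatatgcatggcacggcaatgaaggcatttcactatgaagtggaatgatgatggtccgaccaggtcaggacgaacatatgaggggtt
NDUFB7, chr19:14572067-14572316, minus strand: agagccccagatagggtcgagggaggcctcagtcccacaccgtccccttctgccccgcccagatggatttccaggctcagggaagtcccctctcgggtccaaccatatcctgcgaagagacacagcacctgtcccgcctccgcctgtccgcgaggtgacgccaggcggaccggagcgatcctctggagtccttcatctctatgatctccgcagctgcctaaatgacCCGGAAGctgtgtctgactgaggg
The stretch before SDHA holds 2 NRF1 motifs and that before NDUFB7 holds 1 ETS motif, while those before SDHB and NDUFA4 hold none of the 3. A motif is a run of letters here and not a site of binding.

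The first comparison asked how mutant KDM5A changed RNA levels in knockout cells relative to empty vector. Subunit genes were higher with mutant KDM5A: 43 of 82 passed the test upward and 0 downward (limma on log2 of the scaled FPKM plus 1, all 10 libraries, Benjamini-Hochberg over 17779 genes, adjusted p under 0.05). Over all genes tested, 9.48% passed upward and 7.05% downward. The median difference of the 82 genes was 0.34 on the log2 scale and that of all genes -0.01, and 69 of the 82 differences were above 0, against 48.9% of all genes. Both mutant libraries lay above all 3 empty-vector libraries for 57 of the 82, against 23.3% of all genes, and below them for 1, against 23.6%. For 35 of the 82, both mutant libraries also lay above all wild-type and parental libraries, against 8.86% of all genes.

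The count was not even over the complexes: 18 of 37 genes of complex I passed upward, 1 of 4 of complex II, 5 of 10 of complex III, 10 of 14 of complex IV and 9 of 17 of complex V. Median differences were 0.33 in complex I, 0.03 in complex II, 0.36 in complex III, 0.54 in complex IV and 0.34 in complex V. All 14 genes of complex IV had a difference above 0, from 0.06 for COX7A2L to 0.78 for COX6A1. No test of a difference between complexes was run.

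**Figure D2:**
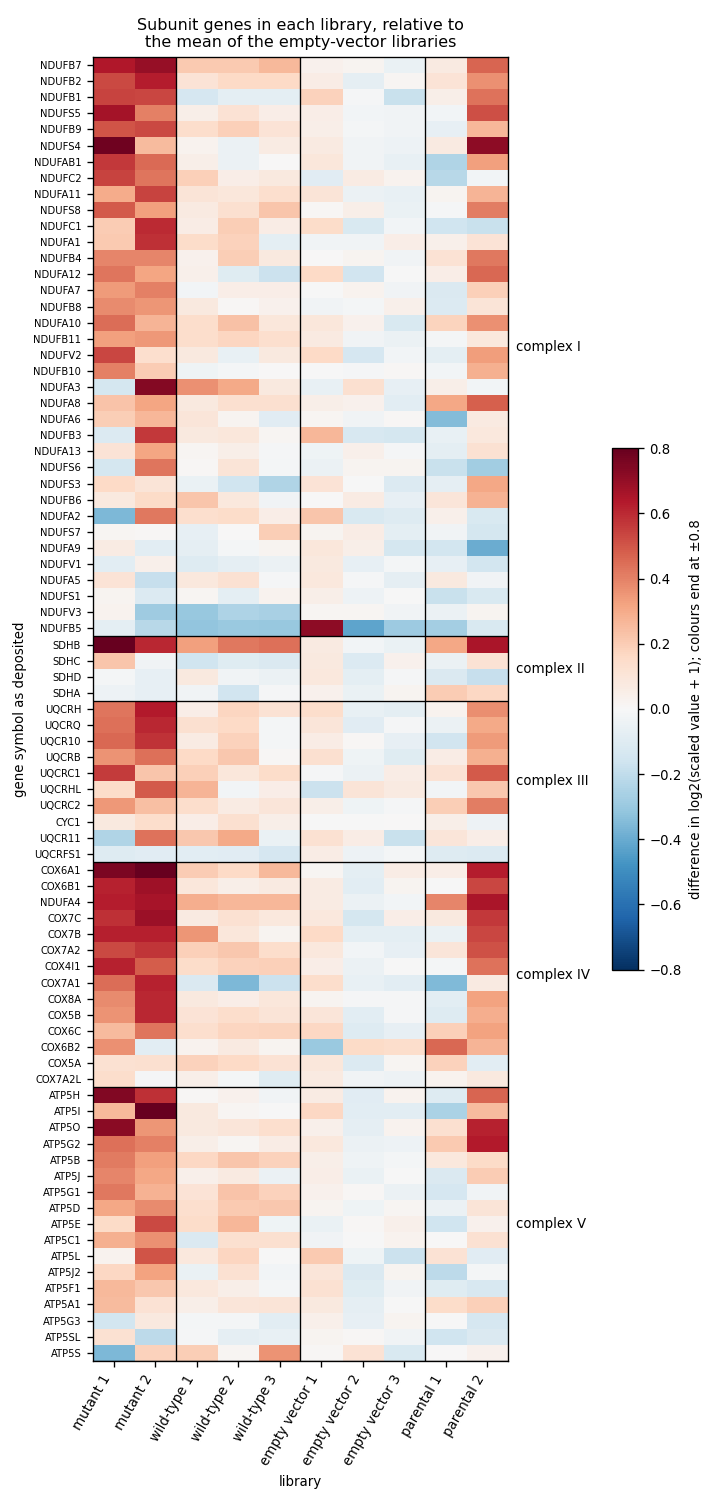
All but 1 of the 82 subunit genes (lines, ordered within its complex by the mutant minus empty-vector difference) in each library (columns), as the difference in log2(scaled FPKM + 1) from the mean of the 3 empty-vector libraries. The 2 mutant columns and the column of parental library 2 are red over most genes of complexes I, III and IV, and NDUFB5 is dark red in empty-vector library 1.

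In complex I, NDUFB7, an accessory subunit of the membrane arm, stood at 360 and 374 scaled FPKM with mutant KDM5A, against 236, 234 and 222 with empty vector. These groups did not overlap, and the fitted difference was 0.67 ± 0.10 (SE, log2, adjusted p = 0.00536). NDUFB2, another accessory subunit of the membrane arm, stood at 295 and 316 in mutant libraries, against 212, 194 and 206 with empty vector, a difference of 0.58 ± 0.08 (adjusted p = 0.00419). NDUFC2, also an accessory subunit of the membrane arm, stood at 348 and 323 in mutant libraries, against 224, 250 and 244 with empty vector (0.48 ± 0.08, adjusted p = 0.00714). The highest genes of the complex, NDUFB9, NDUFS5 and NDUFB8, all passed upward, with differences of 0.52, 0.54 and 0.37.

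The catalytic core of complex I, the subunits that bind flavin and iron-sulfur clusters, held fewer of the passing genes. Of the 7 nuclear core genes, 1 passed upward and their median difference was 0.01, whereas 17 of the other 30 passed with a median of 0.36. NDUFS8, the core gene that passed, stood at 253 and 226 in mutant libraries, against 181, 186 and 173 with empty vector (0.41 ± 0.11, adjusted p = 0.0377), and it did not pass when any 1 of these 5 libraries was left out. NDUFS1, which holds several of the iron-sulfur clusters, stood at 59.6 and 54.3 in mutant libraries, against 60.5, 57.0 and 58.5 with empty vector, and the groups overlapped. NDUFV1, which binds NADH and flavin, stood at 138 and 150 in mutant libraries, against 154, 139 and 145 with empty vector, which also overlap. The core and accessory groups were not tested against each other, and they also differ in length, as given below.

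Complex II split between SDHB and the rest. SDHB, the iron-sulfur subunit that hands electrons to ubiquinone and a tumour suppressor, lies on the minus strand of chromosome 1 (GRCh38, 17018721 to 17054170). It stood at 189 and 149 scaled FPKM in mutant libraries, against 103, 96.9 and 94.7 with empty vector. The mutant libraries lay clear above the empty-vector ones but apart from each other, and the difference was 0.77 ± 0.12 (adjusted p = 0.00612). SDHA stood at 71.3 and 70.1 in mutant libraries, against 75.0, 70.7 and 74.5 with empty vector (adjusted p = 0.573). SDHC stood at 199 and 167 in mutant libraries, against 179, 157 and 174 with empty vector, and SDHD at 125 and 121 in mutant libraries, against 135, 120 and 126 with empty vector, so that SDHB alone of the 4 did not overlap with its empty-vector group.

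In complex III the genes that passed were UQCRH, UQCRQ, UQCRB, UQCR10 and UQCRC2, with differences of 0.53, 0.52, 0.40, 0.52 and 0.29. UQCRQ, a small subunit next to cytochrome b, stood at 496 and 555 in mutant libraries, against 391, 343 and 363 with empty vector. The subunits that carry the nuclear-encoded redox centres did not pass. CYC1, cytochrome c1, stood at 359 and 374 in mutant libraries, against 340, 339 and 341 with empty vector (0.11 ± 0.05, adjusted p = 0.169). UQCRFS1 stood at 50.2 and 50.6 in mutant libraries, against 56.2, 52.3 and 53.3 with empty vector (adjusted p = 0.253), and all of its mutant values were below all of its empty-vector values.

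In complex IV, NDUFA4 had the smallest p of its complex. It lies on the minus strand of chromosome 7 (GRCh38, 10931950 to 10940256) and encodes a small subunit. It stood at 57.7 and 58.9 scaled FPKM in mutant libraries, against 38.7, 35.7 and 36.4 with empty vector, and the difference was 0.64 ± 0.08 (adjusted p = 0.00277). COX6A1 stood at 875 and 906 in mutant libraries, against 526, 492 and 542 with empty vector (0.78 ± 0.14, adjusted p = 0.00881). COX7A2, a subunit that lies near the contact with complex III, stood at 291 and 299 in mutant libraries, against 213, 197 and 192 with empty vector (0.55 ± 0.11, adjusted p = 0.0115). The heart and muscle paralog COX7A1 stood at 1.73 and 2.07 in mutant libraries, against 1.21, 0.921 and 0.895 with empty vector, which did not pass (adjusted p = 0.108).

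**Figure D3:**
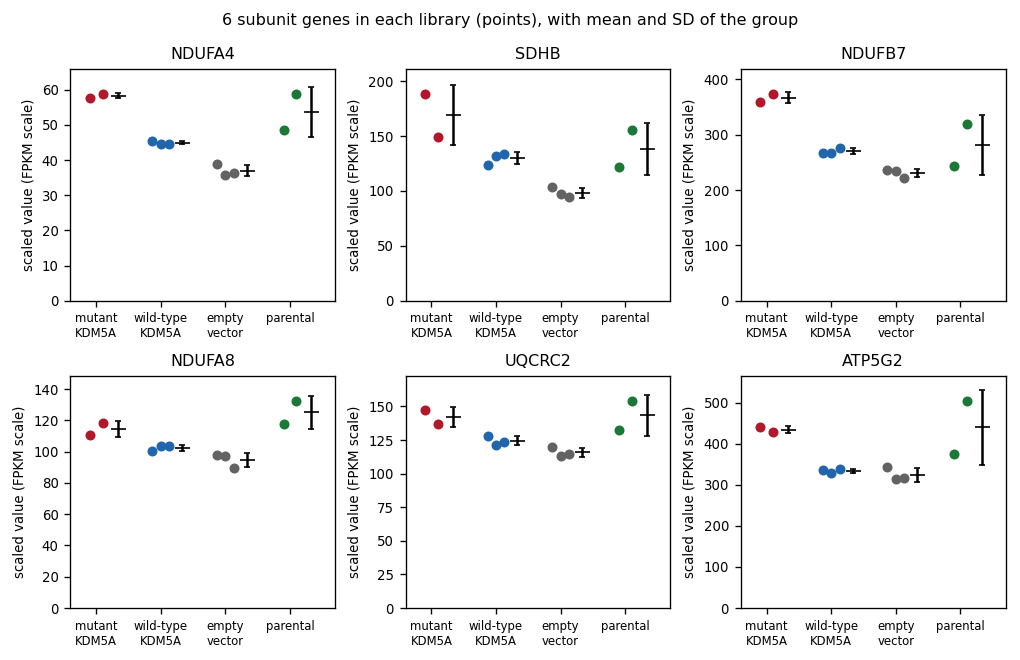
Scaled FPKM of NDUFA4, SDHB, NDUFB7, NDUFA8, UQCRC2 and ATP5G2 in every library (points), with group means and SD (n = 2 mutant, 3 wild-type, 3 empty vector and 2 parental). For NDUFA4 the wild-type libraries lie between the mutant and the empty-vector libraries, and both parental libraries lie above the empty-vector ones in all 6 genes. All but NDUFB7 passed downward in knockout against parental cells, so this order follows from how they were chosen. Over all 82 genes it held for 18, against 20.6% of all genes tested.

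In complex V, ATP5B stood at 960 and 903 in mutant libraries, against 744, 701 and 713 with empty vector (0.37 ± 0.05, adjusted p = 0.00532). ATP5D, the delta subunit of the central stalk, stood at 493 and 518 in mutant libraries, against 405, 388 and 402 with empty vector (0.34 ± 0.06, adjusted p = 0.00837). ATP5H, subunit d of the peripheral stalk, stood at 568 and 509 in mutant libraries, against 356, 318 and 346 with empty vector (0.66 ± 0.14, adjusted p = 0.0152). Of the 3 genes of subunit c, ATP5G1 and ATP5G2 passed, with differences of 0.35 and 0.42, while ATP5G3 stood at 247 and 289 in mutant libraries, against 282, 262 and 279 with empty vector (-0.03, adjusted p = 0.787). The assembly factor ATP5S, the lowest of the complex, averaged 7.46 ± 2.23 in mutant cells (SD, n = 2) and 7.85 ± 0.738 with empty vector (SD, n = 3).

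The direction of these differences depends on how libraries are put on a common scale. Without scaling, the median of all genes lay at -0.30 between mutant and empty vector, and the subunit genes lay at 0.01. Relative to all genes the subunit genes were thus 0.31 higher as deposited, 0.35 higher after scaling by median ratio and 0.13 higher after quantile normalization. As deposited, 10 of the 82 passed upward and 15 downward, against 2.57% and 34.6% of all genes. After quantile normalization 7 passed upward and 1, ATP5A1, downward, against 4.99% and 6.88% of all genes. As deposited, the medians were -0.0067 for complex I, -0.31 for complex II, 0.05 for complex III, 0.21 for complex IV and 0.0018 for complex V. After quantile normalization they were 0.12 for complex I, -0.13 for complex II, 0.13 for complex III, 0.20 for complex IV and -0.03 for complex V, so that complex IV had the highest median under each scaling. NDUFA4, NDUFB2, NDUFB7 and SDHB passed upward under all 3 scalings. The sign of single genes turned as well. Of the 43 genes that passed upward after scaling by median ratio, 7 had differences below 0 after quantile normalization, namely ATP5B, ATP5D, ATP5F1, ATP5G1, COX6C, NDUFB8 and NDUFB10. As deposited, 5 had differences below 0, namely ATP5C1, ATP5F1, NDUFA8, NDUFB10 and UQCRC2. ATP5F1, subunit b of the peripheral stalk of the ATP synthase, was lowest under both, at -0.10 each time.

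**Figure D4:**
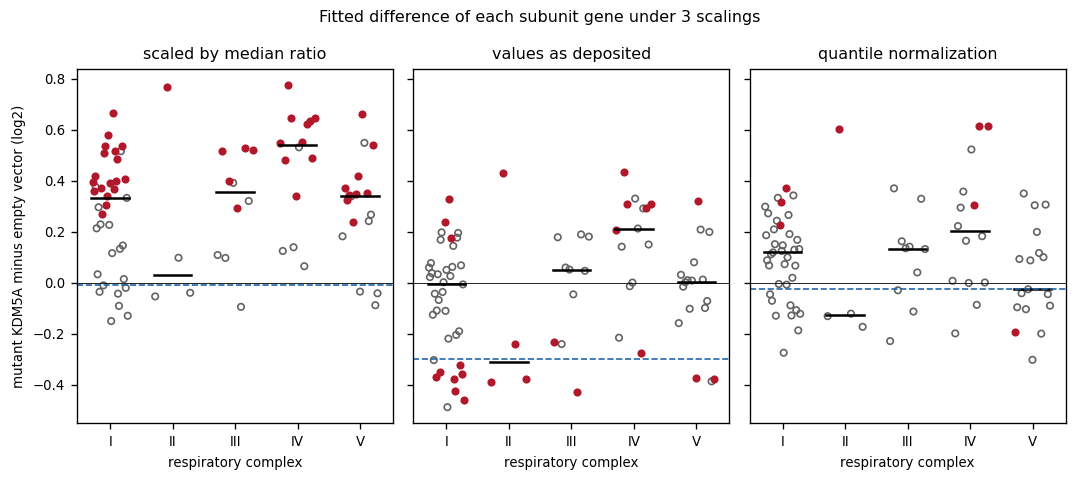
Fitted mutant minus empty-vector difference (log2) of each of the 82 genes, by complex, under 3 scalings; filled red points passed the test, black bars are medians of a complex, and the dashed blue line is the median of all genes tested. As deposited the dashed line lies at -0.30 and 15 subunit genes pass downward, and under the other scalings it lies near 0.

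Single libraries also moved the count. Of the 43 genes, 11 still passed whichever mutant or empty-vector library was left out: ATP5B, ATP5D, COX6A1, NDUFA4, NDUFB11, NDUFB2, NDUFB7, NDUFB8, NDUFB9, NDUFC2 and SDHB. Without mutant library 1, 23 of the 82 passed upward and 1 downward, against 3.88% and 2.95% of all genes, and without mutant library 2, 24 passed upward, against 8.61%. Without empty-vector library 2, 17 passed upward, against 4.92% of all genes, and without empty-vector library 3, 18 did, against 4.68%. The mutant libraries differed from each other by more than 0.5 on the log2 scale in 8 of the 82 genes, from -0.87 for NDUFA3 to 0.52 for NDUFS4 (library 1 minus library 2). NDUFB5 stood out in empty-vector library 1, at 174 scaled FPKM, against 78.4 and 86.1 in the other 2 and 84.5 to 99.7 in the mutant, wild-type and parental libraries.

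Parental library 2, which shares the low estimated depth and high ribosomal share of the mutant libraries, had higher subunit values too. Its median difference from parental library 1 was 0.20 over the 82 genes and -0.01 over all genes, and 63 of the 82 differences were above 0. The part of depth and of RNA composition in the difference between mutant and empty vector was not tested. Among the 6 epithelial markers that could be tested, KRT8, KRT18, KRT19 and EPCAM passed upward, against 9.48% of all genes, while CDH1 and CDX2 did not. The median difference of this list was 0.33 after scaling, -0.0076 as deposited and -0.10 after quantile normalization. For the 82 subunit genes it was 0.34, 0.0092 and 0.11. The part of the markers in the result was not tested.

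Differences were on the whole larger in shorter genes. Across the 82 genes, the mutant minus empty-vector difference had a Spearman rho of -0.41 with coding length in GENCODE 29 and a Pearson r of -0.44 with its log2. These points are genes measured in the same 5 libraries and are not independent. Of 47 genes with up to 500 coding bases, 27 passed upward and the median difference was 0.39. Of 24 genes with over 500 and up to 1000 bases, 13 passed and the median was 0.31. Of 11 genes over 1000 bases, 3 passed and the median was -0.01. Over all genes tested, of any length, 9.48% passed upward. The share among all genes of each length is not given here, so the trend is not shown to be particular to subunit genes. With exonic length, which counts all exons of a gene, the Spearman rho was -0.45. A trend with exonic length, not coding length, was then removed over all genes. This left 39 of the 82 passing upward, against 9.42% of all genes, with a median of 0.30 over the 82. NDUFA4, NDUFB2, NDUFB7 and SDHB were among the 39.

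**Figure D5:**
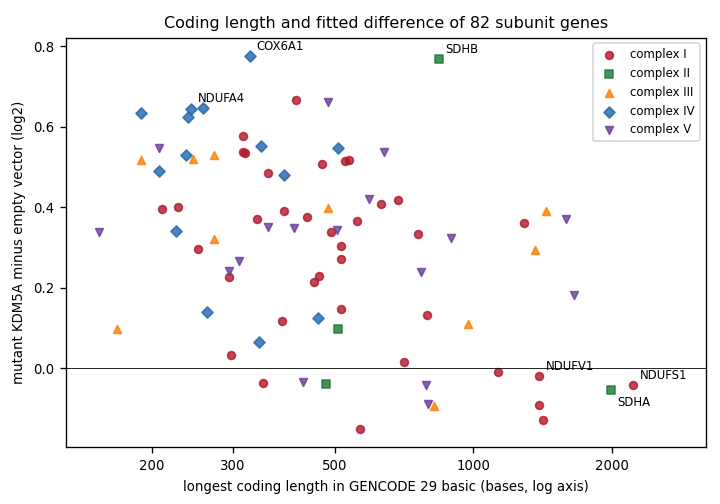
Coding length (bases, log axis) and fitted mutant minus empty-vector difference (log2) of the 82 genes, marked by complex. Of the 8 genes at 0.6 or above, all but SDHB have fewer than 500 coding bases, while SDHA, NDUFS1 and NDUFV1, all longer than 1000 bases, lie just below 0.

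The passing genes were spread over promoters with and without the searched motifs. The median difference was 0.49 for the 20 genes with an ETS motif, of which 12 passed upward, 0.31 for the 16 with an NRF1 motif (7 passed) and 0.37 for the 9 with a YY1 motif (4 passed). It was 0.34 for the 28 genes with none of the 3, of which 15 passed. Over all genes tested, with or without these motifs, 9.48% passed upward. A gene with several motifs is counted under each, and the groups were not tested against each other.

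The second comparison set wild-type KDM5A against empty vector in knockout cells. No subunit gene passed, 0 of 82 in either direction by limma, while 2.52% of all genes passed upward and 2.02% downward. At an unadjusted p under 0.05, 7 of the 82 were higher and 1 lower, and the share of all genes at that threshold is not given here. The median difference of the 82 genes was 0.08 and that of all genes 0.00, and 65 of the 82 were above 0, against 50.1% of all genes. The direction turned under the other scalings: the median was -0.03 with 26 of the 82 above 0 as deposited, where all genes lay at -0.10, and -0.02 with 39 above 0 after quantile normalization. The 3 wild-type libraries lay above the 3 empty-vector libraries for 23 of the 82 and below them for 3, against 16.4% and 16.2% of all genes. NDUFA4 stood at 45.5, 44.7 and 44.7 scaled FPKM in wild-type libraries, against 38.7, 35.7 and 36.4 with empty vector, groups that did not overlap (0.28 ± 0.07, adjusted p = 0.0628). SDHB stood at 123, 132 and 133 in wild-type libraries, against 103, 96.9 and 94.7 with empty vector, likewise without overlap (0.40 ± 0.11, adjusted p = 0.0703). NDUFV3, a small subunit near the NADH site of complex I, stood at 31.2, 32.5 and 32.2 in wild-type libraries, against 39.1, 39.1 and 38.0 with empty vector (-0.27 ± 0.08, adjusted p = 0.0893). ATP5B had 806, 837 and 815 in wild-type libraries, against 744, 701 and 713 with empty vector (0.19 ± 0.05, adjusted p = 0.0624).

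The fit shares its estimate of spread with the mutant and parental libraries, whose replicates correlated at 0.968 and 0.974 over all genes tested, against 0.9818 to 0.9845 within the other groups. With only the 6 libraries of this comparison in the fit, 9 of the 82 passed upward and 1 downward, against 5.39% and 4.11% of all genes. These were NDUFB7, NDUFB9, SDHB, COX4I1, COX6A1, NDUFA4, ATP5B, ATP5D and ATP5G1 upward and NDUFV3 downward. In that fit SDHB had a difference of 0.40 ± 0.05 (limma, adjusted p = 0.00915) and NDUFA4 one of 0.28 ± 0.05 (adjusted p = 0.0191). Without scaling, 0 of the 82 passed upward and NDUFV3 passed downward, against 0.691% and 3.44% of all genes.

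The third comparison set the mutant directly against wild-type KDM5A. By limma 0 of the 82 genes passed in either direction, and 10 genes of the whole table passed, 0.0337% of all genes upward and 0.0225% downward. At an unadjusted p under 0.05, 50 of the 82 were higher and 0 lower. The share of all genes at that looser threshold is not given here, so this count has no background. The median difference of the 82 was 0.24 and that of all genes 0.00, with 73 of the 82 above 0, against 49.9% of all genes. Both mutant libraries lay above all 3 wild-type libraries for 56 of the 82, against 19.5% of all genes, and below them for 1, against 19.4%. NDUFB2 had the smallest p in complex I, at 295 and 316 in mutant libraries, against 220, 228 and 228 in wild-type libraries (0.44 ± 0.08, adjusted p = 0.0816). NDUFA4 differed by 0.37 ± 0.08 (adjusted p = 0.0926), SDHB by 0.37 ± 0.12 (adjusted p = 0.138) and ATP5H by 0.66 ± 0.14 (adjusted p = 0.0926).

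The calls in this comparison rest on libraries outside it. Without parental library 1 or without parental library 2, 27 of the 82 passed upward, against 3.88% and 3.87% of all genes. With only the 5 libraries compared, 13 passed upward, against 1.09%, among them NDUFA4 and NDUFB7 (adjusted p = 0.0456 and 0.0302). KDM5A RNA was also higher in each mutant library than in each wild-type library, a difference of 0.62 (limma, adjusted p = 0.0926), so that dose and mutation cannot be told apart. Relative depth was 0.603 and 0.688 in the mutant libraries, against 1.21, 0.895 and 0.966 in the wild-type libraries. The ribosomal protein share was 15.59% and 16.12%, against 13.086%, 13.652% and 13.433%. The part of depth and of RNA composition in this comparison was not tested.

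The fourth comparison set knockout cells with empty vector against parental cells with empty vector. In knockout cells 5 of the 82 genes passed downward and 0 upward, against 4.09% and 4.84% of all genes, and the median of the 82 was -0.09. Of the 82 differences, 22 were above 0, against 50.3% of all genes. As deposited, where all genes lay at 0.08, the median was -0.01 with 40 above 0, and after quantile normalization it was -0.06 with 28 above 0. The empty-vector libraries lay below both parental libraries for 18 of the 82 and above them for 8, against 20.6% and 21.9% of all genes. The downward counts, 5 and 18 of the 82, are near the shares of all genes and do not set the subunit genes apart. The 5 genes that passed came from 5 complexes: NDUFA8 of complex I, SDHB of complex II, UQCRC2 of complex III, NDUFA4 of complex IV and ATP5G2 of complex V. All 5 also passed upward with mutant KDM5A relative to empty vector, a comparison that uses the same 3 empty-vector libraries, so the counts are not independent.

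NDUFA4 stood at 38.7, 35.7 and 36.4 scaled FPKM in knockout cells, against 48.6 and 58.7 in parental cells, groups that did not overlap (-0.52 ± 0.08, adjusted p = 0.0059). NDUFA8, an accessory subunit of complex I with twin cysteine motifs, stood at 97.9, 97.1 and 89.4 in knockout cells, against 118 and 133 in parental cells (-0.40 ± 0.07, adjusted p = 0.00918). SDHB stood at 103, 96.9 and 94.7 in knockout cells, against 122 and 155 in parental cells (-0.48 ± 0.12, adjusted p = 0.0376). UQCRC2, a core protein of complex III without a redox centre, stood at 120, 113 and 115 in knockout cells, against 133 and 154 in parental cells (-0.30 ± 0.07, adjusted p = 0.0317). ATP5G2 stood at 344, 313 and 315 in knockout cells, against 375 and 504 in parental cells (-0.42 ± 0.11, adjusted p = 0.0407). In each of the 5 genes the higher parental value was that of parental library 2.

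These calls rest on the spread shared with the other groups and, to different degrees, on parental library 2. With only the 5 libraries compared, 0 of the 82 passed in either direction, against 1.26% of all genes downward and 1.35% upward, and NDUFA4 had an adjusted p of 0.0619 and SDHB one of 0.0929 by limma. Without parental library 2, NDUFA4 alone passed of the 82, against 1.79% of all genes downward, with a difference of -0.39 ± 0.07 (adjusted p = 0.026), and the median of the 82 was 0.01. Without parental library 1, 24 passed downward and 1 upward, against 5.4% and 5.29% of all genes. In the fits that kept the other groups, NDUFA4 passed whichever of these 5 libraries was left out, NDUFA8 in all but the fit without parental library 2, and each of the others in 1 of 5. Without both mutant libraries and parental library 2, NDUFA4 and NDUFA8 passed downward and NDUFA6 upward, against 2.66% and 3.23% of all genes. NDUFA4, NDUFA8, SDHB and ATP5G2 passed downward under all 3 scalings.

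Other genes of the pathway, in lists made from textbook roles, gave a mixed picture in mutant against empty-vector cells. Of 13 mitochondrially encoded subunits, 10 passed upward, with a median of 0.48, but their median was -0.29 after quantile normalization and 0.14 as deposited. MT-ND3, a subunit of complex I, averaged 8533 ± 142 scaled FPKM in mutant cells (SD, n = 2) and 5086 ± 297 with empty vector (SD, n = 3). Of 4 further subunit or regulator genes under other names that could be tested, 1 passed. USMG5, a small ATP synthase subunit, stood at 1319 and 1246 in mutant libraries, against 728, 598 and 656 with empty vector (0.96 ± 0.20, adjusted p = 0.0145). USMG5 also stood at 1135 in parental library 2, against 629 in parental library 1.

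Lists of genes that build or serve the complexes are to be read against the 9.48% upward and 7.05% downward of all genes in the same comparison. Of 13 complex I assembly factors tested, NDUFAF1 and NDUFAF2 passed upward with mutant KDM5A, with differences of 0.50 and 0.59, and the median of the list was 0.09. Of 30 assembly factors of complexes II to V, 4 passed upward and 1 downward, with a median of 0.07. COX17, a copper chaperone of complex IV, passed upward in mutant against empty-vector cells (0.52, adjusted p = 0.0122) and downward in knockout against parental cells (-0.49, adjusted p = 0.0203). Of 17 mobile and membrane carriers, 5 passed upward and 1 downward, including CYCS, which encodes cytochrome c (0.32), and SLC25A6, an ADP/ATP carrier (0.78). Of 16 tricarboxylic acid cycle enzymes, 6 passed upward, with a median of 0.22. Of 15 regulators of respiratory gene expression, GABPB1, a partner of GABPA, and TFB2M, a mitochondrial transcription factor, passed upward. TACO1, a translational activator of mitochondrial COX1, and LRPPRC, which stabilizes mitochondrial mRNAs, passed downward, and the median of the list was -0.05. As deposited, where all genes lay at -0.30, the medians were -0.24 for the complex I assembly factors, -0.26 for those of complexes II to V, -0.24 for the carriers, -0.12 for the cycle enzymes and -0.32 for the regulators.

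In wild-type against empty-vector cells, where no subunit gene passed, CYCS did, at 297, 300 and 299 scaled FPKM in wild-type libraries, against 265, 238 and 241 with empty vector (0.27 ± 0.05, adjusted p = 0.0317). The ubiquinone enzyme COQ5 passed downward in that comparison (-0.31, adjusted p = 0.0275), as did IDH3B, a subunit of isocitrate dehydrogenase (-0.29, adjusted p = 0.0141). In knockout against parental cells, IDH3B passed upward (0.49, adjusted p = 0.00136), and so did the assembly factor TMEM126B of complex I (0.47, adjusted p = 0.033). SLC25A6 (-0.70, adjusted p = 0.031), COQ3 (-0.50, adjusted p = 0.031) and IDH2 (-0.45, adjusted p = 0.00663) passed downward. Of the 13 mitochondrially encoded subunits, 0 passed in that comparison.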

How the data were processed

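Per the labels, total RNA was taken with Trizol from sorted HCT116 cells and sequenced on either of 2 Illumina models, and the model of each library is not stated. Per the submitters' processing notes, the tools included Cufflinks 2.2.1, GATK 4.1.2, STAR 2.7.1a and Picard, and the genome build was GRCh38. Their roles, the annotation release and the strand setting are not given in the sources used here. The authors deposited 1 table per library of log2 FPKM values with 1 added before the log, over 60141 loci. The values sum to 999975 to 1000008 per library. No counts were used, so depth is known only in relative terms.

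Values were returned to the linear scale, summed by symbol (4 subunit symbols have 2 loci) and divided by a median-ratio factor per library. Genes at 1 or more in at least 2 libraries, 17779, were fitted in R 4.3.3 with limma 3.58.1 (trended empirical Bayes, 4 groups, pseudocount 1, two-sided, Benjamini-Hochberg). Figures and summaries used Python 3.11.15. Promoters were searched in windows of 300 bases. The fit was tested on simulated data. The genes, lists and tests were chosen with earlier results of these data known. Genes named in the text are, per complex, the 3 of highest and the 1 of lowest level, up to 3 passing genes of smallest p in each direction and comparison or otherwise the 1 of smallest p, every passing gene where 10 or fewer passed, paralogs, and for other lists the same rule on p. Core subunits of complex I, NDUFB5, UQCR10, NDUFA3, NDUFS4 and the genes listed for an alternative fit were named after their values were seen. Some genes that enter the counts are not reported by name here. Alternatives were other scalings, pseudocounts, filters, libraries left out, library weights and a replicate block.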

Additional observations from a re-analysis of the deposited data

How the results depend on the processing

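In this paragraph, counts without a direction add both directions, and counts without a share of all genes have no background here. Mutant against empty vector, 43 subunit genes passed, all upward. As deposited, 10 passed upward and 15 downward, against 2.57% and 34.6% of all genes. After quantile normalization, 7 passed upward and 1 downward, against 4.99% and 6.88% of all genes. The upward count was 18 with no filter on low values (1284 of all 38077 genes), 18 with a replicate block (680 of 17779) and 8 with a fold of at least 1.5 added (550 of 17779). With 1 library left out it ranged from 17 to 47. The median difference (0.34) was 0.0092 as deposited and 0.11 after quantile normalization. The log2 ratio of summed levels, mutant over empty vector, was 0.38 for complex I (0.034 as deposited and 0.12 after quantile normalization), 0.22 for complex II (-0.12 and 0.051), 0.40 for complex III (0.055 and 0.059), 0.52 for complex IV (0.19 and 0.11) and 0.35 for complex V (0.0050 and -0.0094). Of the 43 genes, 7 turned after quantile normalization and 5 as deposited, among them ATP5B (-0.10), ATP5D (-0.041), ATP5G1 (-0.026) and NDUFB8 (-0.0076) after quantile normalization, and NDUFA8 (-0.068) and UQCRC2 (-0.046) as deposited. Wild type against empty vector, the count (0) was 1 as deposited, 2 with a filter at a mean of 5, 10 with only the libraries compared, 8 with library weights, 10 without both mutant libraries and parental library 2, 1 with the gene length trend removed, 3 with protein-coding genes only and 5 at an adjusted p under 0.1, and 0 to 6 with 1 library left out. Mutant against wild type, the count (0) was 2 as deposited, 13 with only the libraries compared, 13 at an adjusted p under 0.1 and 0 to 27 with 1 library left out, and the median (0.24) was 0.031 as deposited and 0.11 after quantile normalization. Knockout against parental, the count (5) was 2 with no filter, 0 with only the libraries compared, 3 without both mutant libraries and parental library 2, 9 at an adjusted p under 0.1, 0 with a fold of at least 1.5 and 1 to 25 with 1 library left out. Within the 250 bases before the start, YY1 motifs were in 1 of 66 members (1.52%, Wilson interval 0.268% to 8.10%), against 0.784% of all genes. The causes of these changes were not tested, save that fewer libraries or stricter rules are part of some alternatives.

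Whether replicate numbers pair the samples is not settled. Over 13 same-numbered pairs, deviations from group means correlated weakly, at -0.09 to 0.05. In groups of 2 libraries the deviations mirror each other, so these values are not independent and cannot exclude pairing. With the replicate block, 18 subunit genes passed for mutant against empty vector, 2 for knockout against parental, and 0 for both comparisons with wild type. Depth sets a limit, since the mutant libraries are only 2 in number and the shallowest by the rough estimate above. They stood at 0.603 and 0.688 of the depth of empty-vector library 1. A library left alone in its group is taken to vary like the other groups.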
